A study of Solanum commersonii and Solanum tuberosum with 8 samples.

Results

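The freezing-tolerant wild potato Solanum commersonii was held in the cold for 7 d, and its leaf RNA was set against that of warm wild-type plants on 2-colour arrays. The data of this comparison are 1 of the 8 columns of the study's deposited table, the one for the sample whose title names 7 days of cold, and all of its 11366 clones were used. The other columns hold 2 h and 24 h of cold in S. commersonii, 2 h, 24 h and 7 d of cold in the cultivated potato Solanum tuberosum, and 35S::AtCBF3 plants of each species in the warm. Each clone has 1 log ratio per column, whose base is not stated and was read as 2, so every fold change rests on that reading. The authors combined each ratio from 3 slides (2 for S. tuberosum 35S::AtCBF3), so no spread between replicates, standard error or p-value could be computed.

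Plants were 3 weeks old, raised at 25°C under days of 16 h light and nights of 8 h, when the move to 2°C was made 8 h after dawn. Plants of the cold columns were wild type, from 3 independent experiments. The 7 d column had as controls wild-type plants harvested after 24 h in the warm, which also served the 24 h column of S. commersonii, while the 2 h column had controls harvested after 2 h. Plants of the 7 d column were thus older at harvest than their controls, and the labels give a light intensity of 50 in the cold against 350 in the warm. Cold, light and age cannot be told apart in this column. The transgenic plants express the Arabidopsis transcription factor CBF3 from the 35S promoter, which is active in most tissues of a plant. They came from 3 independent lines of the wild and 2 of the cultivated species and were set against warm wild type, and it is not stated whether that wild-type RNA was the one used for the cold columns. For the transgenic S. tuberosum sample the genotype label names the other species, and its title and organism were followed.

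Many temperate plants become more tolerant of freezing during days at low, non-freezing temperature, a process called cold acclimation. S. commersonii acclimates in this way and S. tuberosum does not. In Arabidopsis, CBF transcription factors are induced within hours of cold and activate genes for protective proteins and for the synthesis of compatible sugars, and longer cold brings further transcript changes, with lower levels of many transcripts for growth and photosynthesis. The clones of this table carry only identifiers, which were not paired with genes here, so the transcripts are described by the size, rank and pattern of their ratios and not by function, and the leaf origin could not be checked against marker genes. A ratio above 0 was taken to mean more transcript in the treated or transgenic leaves, which the channel labels make likely and do not settle. Were the direction turned, higher and lower would exchange places throughout.

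After 7 d of cold most clones stood near the warm control and those that did not were more often lower than higher. The median log2 ratio was -0.0054, the middle 50% of clones lay between -0.27 and 0.25, and the full range ran from -3.72 to 4.19. Of all clones, 352 were at least 2-fold higher (3.1%) and 616 at least 2-fold lower (5.42%). A lower ratio in whole leaves can come from fewer cells of a type or from less RNA per cell, which cannot be told apart. The 968 clones past 2-fold made up 8.52% of the array and held 64.3% of the sum of the squared log2 ratios, with 44.9% in the lower and 19.4% in the higher clones. The 8936 clones within 1.5-fold of the control made up 78.6% of the array and held 15.4% of that sum.

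From 1.5-fold to 6-fold, the excess of lower clones was larger at each higher threshold. At 1.5-fold 1357 clones were lower and 1073 higher, or 1.26 lower clones for each higher one. This number was 1.75 at 2-fold, 3.14 at 3-fold, with 248 lower and 79 higher, and 3.78 at 4-fold, with 140 lower and 37 higher. At 6-fold 56 clones were lower and 11 higher, a ratio of 5.09, and at 8-fold 19 were lower and 5 higher, a ratio of 3.8. The clones whose names begin with STMC, described further on, carried much of this: without them 66 clones were lower and 35 higher at 4-fold. The lower share of the changed clones over the whole array moved from 55.8% at 1.5-fold (exact Clopper-Pearson 95% interval 53.8 to 57.8%, which describes clones and not plants) to 79.1% at 4-fold (72.4 to 84.8%). S. tuberosum at 7 d, with its own controls, had 1573 lower and 1315 higher clones at 1.5-fold and 3.46 lower clones for each higher one at 4-fold. The 24 h column of S. commersonii stood the other way at 4-fold, with 6 lower clones and 38 higher. The number of clones at least 4-fold higher was thus alike in these columns of S. commersonii, and the columns stood apart in the number that were lower.

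**Figure D1:**
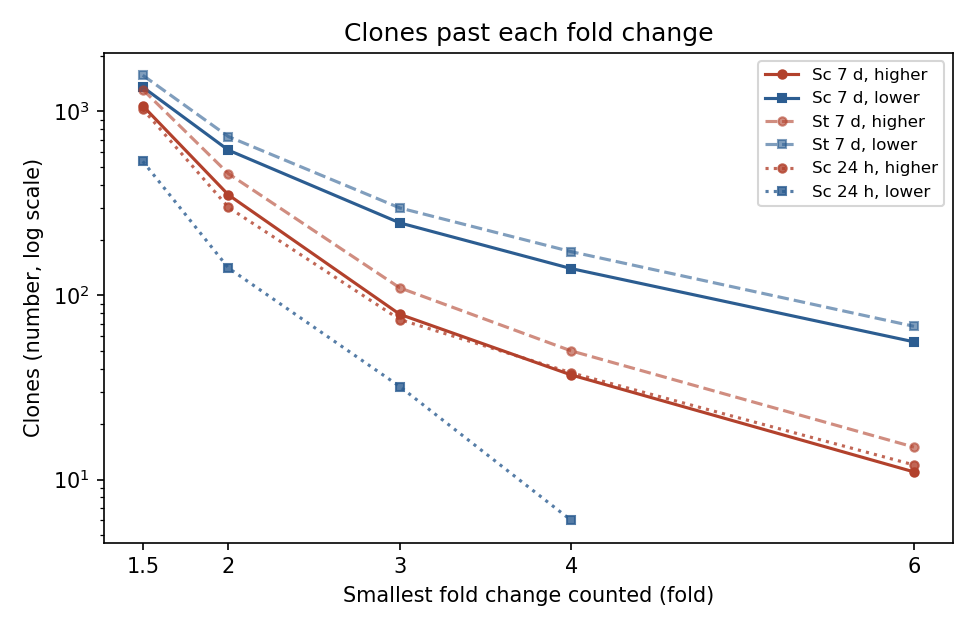
Number of clones (log scale) at least as far from the warm control as the fold change on the x axis, for S. commersonii (Sc) at 7 d and 24 h of cold and S. tuberosum (St) at 7 d; red marks higher and blue lower clones. At 4-fold the S. commersonii 7 d column held 140 lower and 37 higher clones, and its 24 h column 6 lower and 38 higher.

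The ends of the ranking differed in shape. The highest clones thinned out quickly: the highest ratio was 4.19, the 5th 3.32, the 10th 2.71, the 50th 1.86 and the 100th 1.51. The lowest clones were packed more closely, at -3.72, -3.43, -3.28, -2.66 and -2.24 for the same positions. A few clones thus stood far above the rest, while the strongly lower clones formed a broad group.

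The clones with the highest ratio were STMJO47 and STMIC42. The log2 ratio of STMJO47 in the wild species was 0.38 after 2 h, 3.22 after 24 h and 4.19 after 7 d, the last being 18.2-fold. In S. tuberosum its ratios were 0.020, 3.22 and 3.16 at these times. With 35S::AtCBF3 in the warm its value was 3.90 in the wild and 1.24 in the cultivated species. It was nearly flat at 2 h in both species, and in the transgenic columns its rank from the top was 19 for S. commersonii and 546 for S. tuberosum. STMIC42 had the same pattern, with 0.37, 3.14 and 3.92 in the wild species, 0.26, 2.95 and 2.80 in the cultivated one, and 3.66 and 0.79 with 35S::AtCBF3. The pair lay within 0.5 of each other in every one of the 8 columns, and each had 1 further clone that close to it. Clones this alike may carry the same transcript, which could not be checked without their genes.

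The lowest clones were STMIY56 and STMIG06. The log2 ratio of STMIY56 in the wild species was 0.19 after 2 h, -1.42 after 24 h and -3.72 after 7 d, the last being 13.2-fold lower. Its ratios in S. tuberosum were 0.65, -1.79 and -3.62, close to those of the wild species. With 35S::AtCBF3 it stood at -2.06 in the wild and -2.62 in the cultivated species. STMIG06 had ratios of -0.51, -1.53 and -3.55 in the wild species and of -1.19, -0.51 and -2.73 in the cultivated one. With 35S::AtCBF3 it was at -1.74 and at -5.45, where its rank from the bottom was 8. These clones were already lower at 24 h in S. commersonii, and both were lower in transgenic plants of both species. The S. commersonii 24 h column shares the 7 d control, and the S. commersonii transgenic column may.

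**Figure D2:**
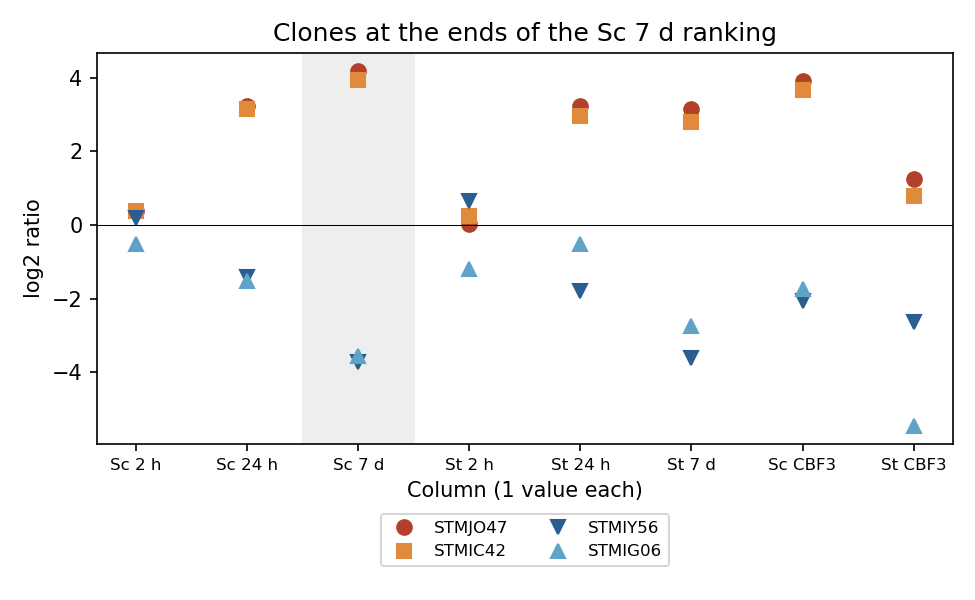
Log2 ratio of the 2 highest and the 2 lowest clones of the S. commersonii 7 d ranking in all 8 columns (1 value each; the 7 d column is shaded; Sc is S. commersonii and St is S. tuberosum). At 2 h in S. commersonii the 4 clones lie between -0.51 and 0.38, and at 7 d between -3.72 and 4.19.

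The changed clones were next followed through the earlier times. At 2 h, measured against separate controls, the 352 higher clones had a median of -0.0076 (quartiles -0.24 and 0.32) and the 616 lower ones of -0.0056 (-0.15 and 0.17). Of the higher clones, 34 (9.66%) were at least 2-fold higher at 2 h, against 10.9% of all clones, and of the lower ones 15 (2.44%) were. Most clones that stood out at 7 d had thus been near the control at 2 h. At 24 h, against the same control RNA as at 7 d, the higher clones had a median of 0.39 (quartiles 0.11 and 1.07) beside 1.27 at 7 d. The lower clones had -0.48 (-0.83 and -0.22) beside -1.46. Because the control is shared, no overlap or correlation between these columns is given. The S. tuberosum column for 24 h shares no control with S. commersonii at 7 d, and its medians for the same clones were 0.48 and -0.43. Of the 158 clones that were between 2-fold and 4-fold lower in S. tuberosum at 24 h, 94 (59.5%) were at least 2-fold lower in S. commersonii at 7 d, against 5.42% of all clones.

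The size of the 7 d change went with the S. tuberosum 24 h value, more steeply among the higher clones. The 273 clones between 2-fold and 3-fold higher at 7 d had a S. tuberosum 24 h median of 0.43, the 42 between 3-fold and 4-fold higher one of 0.67, and the 37 over 4-fold higher one of 1.78. On the lower side these medians were -0.34, -0.49 and -0.67 for 368, 108 and 140 clones. The S. commersonii 24 h column, with the shared control, had medians of 0.29, 0.68 and 1.53 for the higher and of -0.41, -0.68 and -0.66 for the lower clones. The 37 highest clones had a small positive median in S. commersonii at 2 h (0.30, with 30 of 37 above 0, against 52.1% of all clones). The clones between 2-fold and 3-fold and between 3-fold and 4-fold higher were at -0.080 and -0.018 at 2 h, and the 140 lowest at -0.0070.

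**Figure D3:**
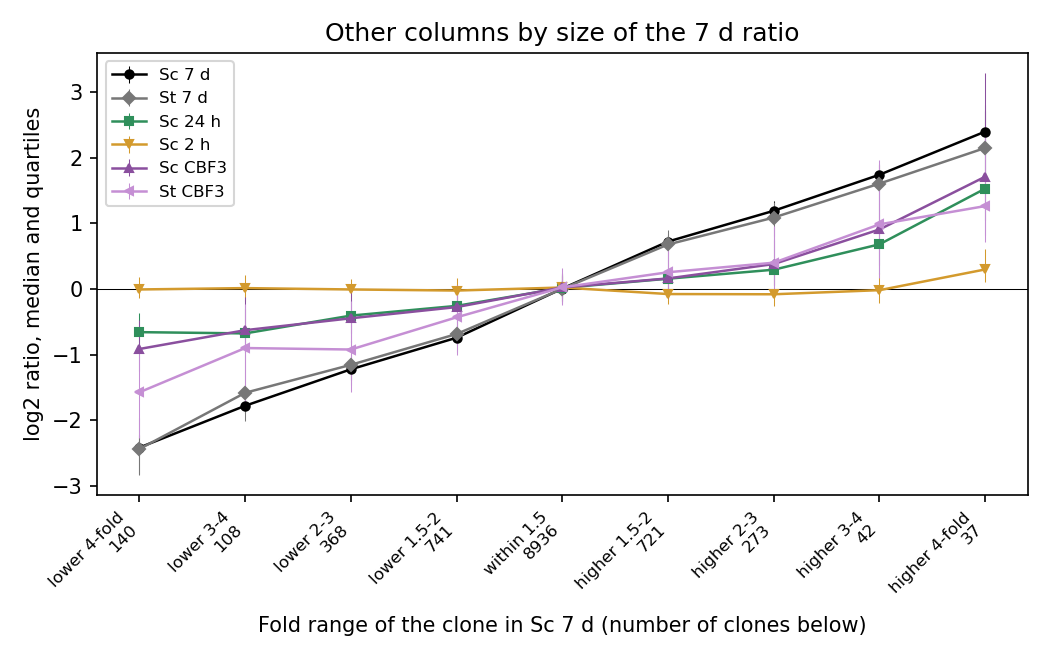
Median log2 ratio (bars: quartiles) in 6 columns for clones grouped by their fold range in S. commersonii at 7 d (number of clones under each label; Sc is S. commersonii, St is S. tuberosum, CBF3 is 35S::AtCBF3). The 7 d column set the groups, and the 24 h column shares its control. The S. tuberosum 7 d medians run beside those of S. commersonii, from -2.44 to 2.15, and the 2 h medians stay between -0.080 and 0.30.

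The clones that had been high at 2 h were near the control again by 7 d, but not exactly at it. Of the 1241 clones at least 2-fold higher at 2 h, 34 (2.74%) were 2-fold higher at 7 d, against 3.1% of all clones, and 15 (1.21%, 0.68 to 1.99%) were 2-fold lower, against 5.42%. The 96 clones over 8-fold higher at 2 h had a median of 3.17 at that time, of 1.05 at 24 h and of 0.28 at 7 d, which is 1.22-fold. Of these, 93 (96.9%, 91.1 to 99.4%) were above 0 at 7 d, against 49.5% of all clones. They were packed closely, with an SD across clones of 0.23 against 0.61 for the 9660 clones within 1.5-fold at 2 h. For the 568 clones between 4-fold and 8-fold higher at 2 h, the 7 d median was 0.097, with 424 (74.6%) above 0.

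In S. tuberosum at 7 d the same 96 clones had a median of -0.070, with 37 above 0 (38.5%, 28.8 to 49.0%), against 49.1% of all clones. Choosing the clones on the S. tuberosum 2 h column gave the same contrast: the 109 clones between 4-fold and 8-fold higher there had a 7 d median of 0.27 in S. commersonii, with 97 above 0, and of -0.061 in S. tuberosum, with 49 above 0. The 149 clones over 8-fold higher in S. tuberosum at 24 h likewise had a S. commersonii 7 d median of 0.24, with 143 above 0. Both sets overlap the 96 clones, whose S. tuberosum medians were 2.05 at 2 h and 3.18 at 24 h. They are therefore not independent support for the contrast. With 35S::AtCBF3 in S. commersonii, whose control RNA may be shared, all 96 clones were above 0 at a median of 0.48, against 51.2% of all clones. With 35S::AtCBF3 in S. tuberosum 47 of the 96 were above 0 (49.0%), near the 50.8% of all clones, at a median of -0.014.

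**Figure D4:**
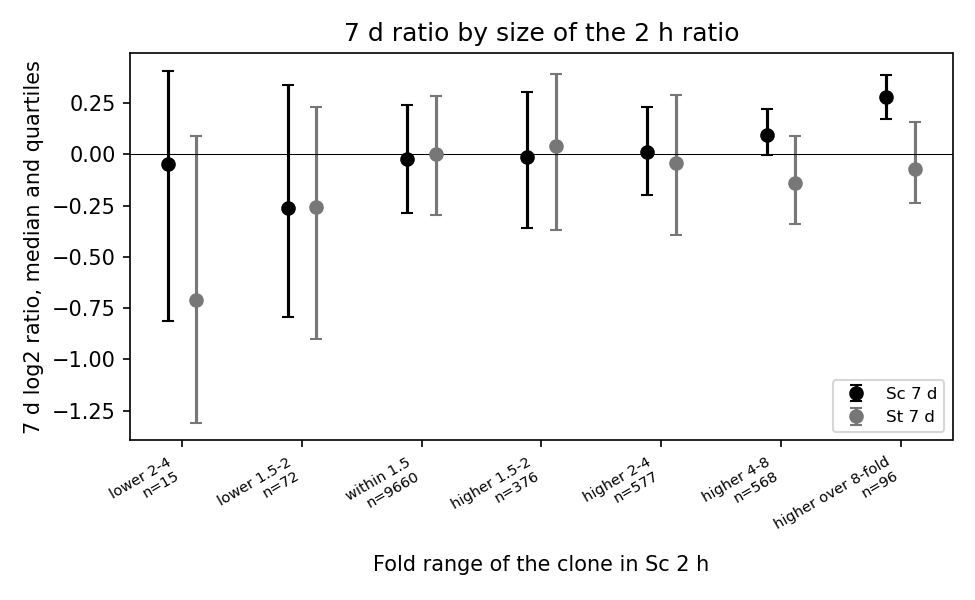
Median 7 d log2 ratio (bars: quartiles) in S. commersonii (Sc, black) and S. tuberosum (St, grey) for clones grouped by their fold range in S. commersonii at 2 h, with the number of clones. In the group over 8-fold higher at 2 h the medians are 0.28 and -0.070.

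The 15 clones that were 2-fold higher at 2 h and 2-fold lower at 7 d had S. commersonii medians of 1.39, -0.53 and -1.36 after 2 h, 24 h and 7 d. In S. tuberosum at 7 d they were at -1.11, all below 0, while 49.1% of all clones were above 0. At least 2-fold lower there were 10 of them (66.7%), against 6.42% of all clones. The 34 clones that were 2-fold higher at both times had medians of 1.69 at 2 h, 1.53 at 24 h and 1.48 at 7 d, where the choice of the clones fixes the 2 h and 7 d values to at least 1. Single clones among them ranged from -0.017 to 3.50 at 24 h. All 34 were above 0 in S. tuberosum at 7 d, against 49.1% of all clones, at a median of 1.56. With 35S::AtCBF3 in S. commersonii, whose control RNA may be shared, 22 were at least 2-fold higher (64.7%), against 5.81% of all clones. In that column 2 were at least 2-fold lower (5.88%), against 3.11%.

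Among the 6 columns compared, which leave out the 24 h column with the shared control, S. tuberosum after 7 d had the highest Pearson's r with S. commersonii at 7 d, 0.82 across the 11366 clones. The points are clones on arrays of one design and are not independent, and the species share no control RNA. Of the 352 higher clones, 344 were above 0 in S. tuberosum and 234 (66.5%) were at least 2-fold higher, against 4.04% of all clones. Of the 616 lower clones, 608 were below 0 and 440 (71.4%) were at least 2-fold lower, against 6.42%. The remaining clones mostly fell just short: 87 of the higher and 119 of the lower were between 1.5-fold and 2-fold in the same direction in S. tuberosum. The change was larger in S. commersonii in 223 of the 352 higher and 353 of the 616 lower clones. These clones were chosen on S. commersonii, and choosing on S. tuberosum turned the order: its 459 higher clones had medians of 1.28 there and 1.02 in S. commersonii, and its 730 lower clones of -1.44 and -1.18.

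Few of the changed clones lay near the control in S. tuberosum. Of the higher clones, 31 were not 1.5-fold higher in S. tuberosum, and of the lower ones 57 were not 1.5-fold lower, of which 1 was 2-fold higher there. The reverse sets were changed 2-fold in S. tuberosum and not 1.5-fold in the same direction in S. commersonii. They held 110 of 459 higher and 124 of 730 lower clones, and 1 of the 110 was 2-fold lower in S. commersonii. Of all clones, 9.44% were at least 1.5-fold higher and 11.9% at least 1.5-fold lower in S. commersonii at 7 d. The S. tuberosum column held more clones past 2-fold, 1189 against 968, so the sizes of these sets are not directly comparable. The 57 clones had S. commersonii medians of -1.16 after 7 d and -0.59 after 24 h, beside -0.40 and -0.14 in S. tuberosum, and one of -0.19 with 35S::AtCBF3 in S. commersonii. The 31 clones had S. commersonii medians of 1.19 after 7 d and 0.16 after 24 h, beside 0.38 and -0.050 in S. tuberosum. With 1 value per column, whether any of these clones differs between the species was not tested.

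The difference between the species, taken clone by clone, was at least 2-fold above 0 for 129 clones (1.13%) and below 0 for 145 (1.28%). Of the 129 clones with the higher ratio in S. commersonii, 81 had passed 2-fold downward in S. tuberosum and 22 upward in S. commersonii. Of the 145 with the lower ratio in S. commersonii, 69 had passed 2-fold upward in S. tuberosum and 45 downward in S. commersonii. More of these clones had thus passed 2-fold in S. tuberosum than in S. commersonii. The same held over all clones, of which 1189 had passed 2-fold in S. tuberosum and 968 in S. commersonii. Whether the differing clones go beyond this was not tested. In S. commersonii, 96 of the 129 and 91 of the 145 were within 2-fold of the control. At 3-fold the order of the counts turned, with 39 above 0 and 23 below.

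Strongly changed clones often stood past 2-fold in warm 35S::AtCBF3 leaves as well. The 37 clones over 4-fold higher at 7 d had medians of 1.71 and 1.26 in the S. commersonii and S. tuberosum 35S::AtCBF3 columns. Of these, 25 (67.6%) and 22 (59.5%) were at least 2-fold higher in the transgenic plants, against 5.81% and 6.99% of all clones. The 140 clones over 4-fold lower had medians of -0.91 and -1.57, with 63 (45%) and 100 (71.4%) at least 2-fold lower, against 3.11% and 7.28%. Because the S. commersonii columns may share control RNA, the S. tuberosum transgenic column, which shares none with S. commersonii, is the one to read without that doubt.

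Over all clones past 2-fold at 7 d the shares were smaller. Of the 352 higher clones, 105 (29.8%) were 2-fold higher with 35S::AtCBF3 in the wild species, against 5.81% of all clones. In the cultivated species 108 (30.7%) were, against 6.99%. The medians were 0.50 and 0.52. Of the 616 lower clones, 153 (24.8%) were 2-fold lower with 35S::AtCBF3 in the wild species, against 3.11% of all clones. In the cultivated species 320 (51.9%, 47.9 to 56.0%) were, against 7.28%. The medians were -0.54 and -1.06. At 3-fold, applied to both columns, the share of lower clones that were also lower with 35S::AtCBF3 was 10.1% for S. commersonii and 40.7% for S. tuberosum. Of all clones, 0.84% and 3.01% were 3-fold lower in these transgenic columns. The S. tuberosum column thus held more lower clones over the whole array as well. The transgenic column of S. tuberosum has the wider central spread (the SD estimated from the median absolute deviation), 0.48 against 0.37. With all columns brought to one spread its share at 2-fold was 40.7%, against 25.8% for S. commersonii. The shares of all clones in the scaled transgenic columns were not computed, so these values have no background beside them.

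Read from the S. commersonii transgenic column, whose control RNA may be shared, the strongest responses to AtCBF3 split at 7 d. The 64 clones at least 8-fold higher with 35S::AtCBF3 in S. commersonii had a 7 d median of 0.26, with quartiles of -0.34 and 1.51. Of these, 21 (32.8%) were 2-fold higher at 7 d and 11 (17.2%) were 2-fold lower, against 3.1% and 5.42% of all clones. Both tails of the cold column were therefore enlarged among them. Of the 145 clones between 4-fold and 8-fold higher in that transgenic column, 17.2% were 2-fold higher at 7 d and 3.45% 2-fold lower. The 37 clones over 8-fold higher with 35S::AtCBF3 in S. tuberosum had a 7 d median of 0.59 (quartiles 0.19 and 1.19). Of these, 15 (40.5%) were 2-fold higher and 5 (13.5%) 2-fold lower. For the 132 clones between 4-fold and 8-fold higher there, the shares were 18.2% and 2.27%. In all, 34 clones were 2-fold lower at 7 d and 2-fold higher with 35S::AtCBF3 in S. commersonii (5.52% of the 616, against 5.81% of all clones). These 34 had medians of -1.45 at 7 d and 1.88 in the transgenic plants, both fixed to at least 2-fold by the choice of the clones. In S. tuberosum their medians were -1.11 at 7 d, -0.90 at 24 h and 0.96 with 35S::AtCBF3. The opposite set, higher at 7 d and lower with 35S::AtCBF3 in S. commersonii, held 5 clones (1.42% of the 352, against 3.11% of all clones). On the lower side, 61.2% of the 196 clones over 4-fold lower with 35S::AtCBF3 in S. tuberosum were 2-fold lower in S. commersonii at 7 d, 31.7% of the 631 clones between 2-fold and 4-fold lower, and 2.00% of the 8064 clones within 1.5-fold.

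The lower clones were spread unevenly over the array's clone names. The names begin with STM and a further letter, which gives 8 series of 108 to 2026 clones. In the STMC series 218 of 1538 clones (14.2%, 12.5 to 16.0%) were at least 2-fold lower at 7 d, against 398 of the other 9828 (4.05%, 3.67 to 4.46%). The series held 13.5% of all clones, 35.4% of the lower ones and 74 of the 140 clones past 4-fold lower. Its median was -0.18 and that of the other clones 0.013. In the other 7 series between 2.40% and 6.48% of clones were lower. The higher clones did not follow this pattern, with 2.08% of the STMC series (1.43 to 2.92%) and 3.26% of the other clones (2.91 to 3.63%), and the largest share, 9.26%, in the 108 clones of the STMF series. What the series stand for is not given in the sources used here.

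**Figure D5:**
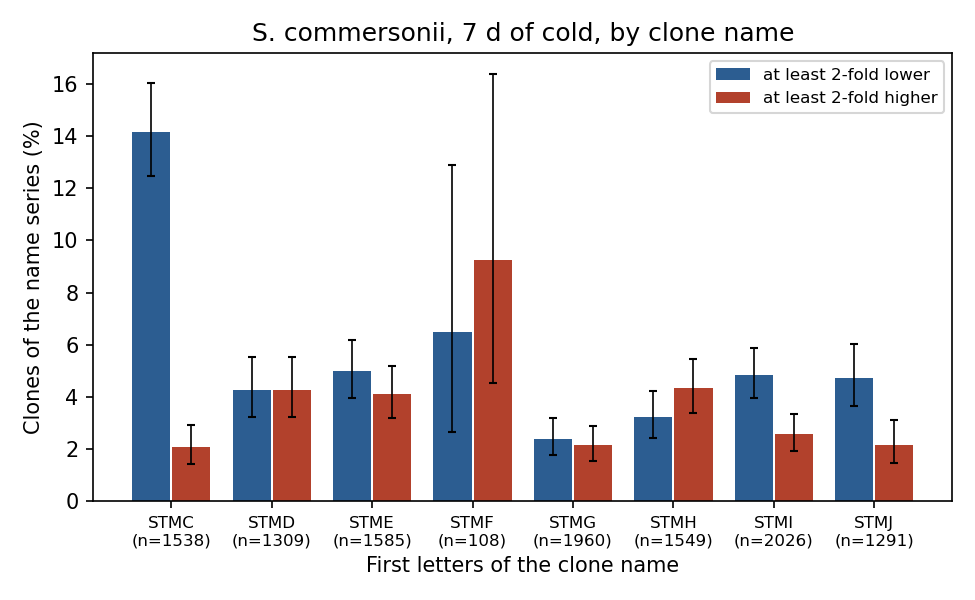
Share of clones at least 2-fold lower (blue) and higher (red) in S. commersonii after 7 d of cold, by the first letters of the clone name (n: clones); bars start at 0 and the whiskers are exact 95% intervals for clones. The STMC series stands at 14.2% lower and the other 7 between 2.40% and 6.48%.

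The excess held across the STMC series. When clones were grouped by the first 5 characters of their names, all 24 STMC groups of at least 40 clones had a median below 0, against 52 of the 132 other groups. Lower clones made up 6.67 to 40% of these 24 groups, with a median of 11.9%, and 0 to 14.9% of the others, with a median of 3.77%. The series held more lower clones than the rest in columns with other controls too. In S. tuberosum at 7 d 15.9% of STMC clones were 2-fold lower against 4.93% of the others, and with 35S::AtCBF3 in S. tuberosum 17.4% against 5.69%. At 2 h in S. commersonii 0.20% were lower against 0.14%. Without the STMC clones the 7 d column of S. commersonii held 398 lower and 320 higher clones, or 55.4% lower among the changed, in place of 63.6%. The excess of lower clones over higher ones at 2-fold was thus smaller without this series, while at 4-fold 66 lower and 35 higher clones remained. Whether the series differ in the genes they hold or in how they were made and printed was not tested.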

How the data were processed

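Leaf RNA was dyed through aminoallyl coupling, and each channel lists Cy3 as well as Cy5, per the labels' protocols. The authors deposited 1 log ratio per clone and column (8 columns, 11366 clones, none missing), read here as log2. Each combines 3 slides or, for S. tuberosum 35S::AtCBF3, 2. Per the submitters' processing notes, the tool was limma. The background correction, normalization, spot filters, log base, centring and direction are not stated. With 3 slides the dyes are unbalanced and a dye effect of a clone may persist. Neither values per slide nor intensities were analysed here, and precision is limited by the few slides.

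Columns were mapped by sample title. Clones were counted at 2-fold, with 1.5-fold, 3-fold, median centring and scaling to one spread as alternatives, and described by medians, ranks and exact Clopper-Pearson 95% intervals (Python 3.11.15, scipy 1.17.1). Counting was tested on simulated data. No gene names were matched, so the 14 gene lists were not run, and by the rule for that case the 2 highest and 2 lowest clones at 7 d are named. The sample, the lists and the clone sets were chosen with earlier results of these data known.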

Additional observations from a re-analysis of the deposited data

Results flagged for a closer look

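The 96 clones over 8-fold higher at 2 h in S. commersonii had a median 7 d log2 ratio of 0.28 in S. commersonii and of -0.070 in S. tuberosum. They are given here because the species stood on opposite sides of 0. Each species has 1 value per clone, the clones were chosen on a S. commersonii column, and this difference was not tested.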

How the results depend on the processing

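Centring each column on its median left all 14 results tested within their interval or within 1.5 times their count. At 1.5-fold the 7 d column held 1073 higher and 1357 lower clones (55.8% lower), and at 3-fold 79 and 248 (75.8%). The difference between the species at 7 d was above 0 for 554 and below 0 for 561 clones at 1.5-fold, and for 39 and 23 at 3-fold. Of clones higher at 2 h, 6.18% were lower at 7 d at 1.5-fold, 0 at 3-fold and 2.12% with columns scaled to one spread. Of all clones, 11.9% were lower at 7 d at 1.5-fold and 2.18% at 3-fold. The share of lower clones also lower with 35S::AtCBF3 in S. commersonii was 35.8% at 1.5-fold and 10.1% at 3-fold, against 8.80% and 0.84% of all clones. The share of higher clones also higher there was 39.2% at 3-fold, against 2.75%. The S. tuberosum 35S::AtCBF3 share of lower clones was 40.7% at 3-fold, against 3.01% of all clones. It was 40.7% with scaling and 47.2% without the STMC clones, the latter against 5.69% of the clones left. The 24 h medians were 0.22 and -0.34 at 1.5-fold, 1.06 and -0.66 at 3-fold, and -0.62 for lower clones with scaling. Shares also changed in S. tuberosum at 7 d were 53.7% and 63.5% with scaling, and 66.3% for lower clones without the STMC clones. With scaling, the shares of all clones in the S. tuberosum columns were not computed. Without the STMC clones 398 clones were lower in S. commersonii at 7 d (55.4% of the changed), and 4.93% of the clones left were lower in S. tuberosum at 7 d. The STMC share of lower clones was 25.7% at 1.5-fold and 6.89% at 3-fold. A higher threshold keeps fewer clones by construction; other causes were not tested. Leaving out the STMC clones, and the results on that series and on S. tuberosum 35S::AtCBF3, were added after the data had been seen. No paired analysis was possible because each column holds 1 value per clone, and leaving out a slide was not possible for the same reason. Dim clones could not be set apart without intensities.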

Other observations

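Many changed clones had close matches elsewhere on the array. Of the 140 clones at least 4-fold lower at 7 d, 110 (78.6%) had at least 1 other clone within 0.5 of them on the log2 scale in all 8 columns, and the most for a single clone was 18. Of the 37 clones at least 4-fold higher, 13 (35.1%) had such a match, and the most was 2. Among clones at least 2-fold changed the shares were nearer, 81.2% of the 616 lower clones and 74.7% of the 352 higher ones, with at most 216 and 345 matches for a single clone. The difference between higher and lower clones was not tested. The share of all clones with such a match was not computed, so how often unrelated clones match is not known. Clones that match may carry the same transcript. Whether counts of clones differ from counts of transcripts was not tested. Clones were also grouped by the number at the end of their names, 1 to 96, and the medians of the 96 groups at 7 d lay between -0.075 and 0.061.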
